A study of Mus musculus with 16 samples.

Results

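Kinesins and cytoplasmic dynein are the motor proteins that carry cargo along microtubules. The genes described here are those of the kinesins, the kinesin light chains and the subunits of cytoplasmic dynein, chosen by symbol: names that begin with Kif and a digit, Klc and a digit, Dync1, Dync2 or Dynl. The rule found 56 of the 20436 genes in the tables, of which 37 are kinesins, 4 are kinesin light chains, 7 are heavy, intermediate or light intermediate chains of dynein, and 8 are dynein light chains.

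Both assays were made from cortex of mice aged 28 to 35 days. All groups share the strain background that the labels give as FVB.129P2-Pde6b+ Tyr c-ch/AntJ. The 4 genotypes were wild type (WT), a single knockout of Fmr1 (FK), a single knockout of Cpeb1 (CK), and a double knockout of Fmr1 and Cpeb1 (DK). Fmr1 encodes FMRP, an RNA-binding protein that represses translation and whose loss underlies fragile X syndrome, and Cpeb1 encodes an RNA-binding protein that controls polyadenylation and translation. Cytoplasmic lysate was divided between RNA-seq and ribosome profiling, which sequences the RNA fragments that ribosomes protect (footprints). Each genotype had 2 libraries per assay, 16 in all. The labels describe neither the knockout alleles nor the sex of the mice, and they do not say whether cortices were pooled or whether the 2 libraries came from separate mice, so the p-values measure the spread between these libraries only.

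Kinesins mostly walk toward the plus ends of microtubules, which in axons point away from the cell body, and cytoplasmic dynein walks toward the minus ends. In neurons the first group carries synaptic vesicle precursors, mitochondria and RNA granules outward, and dynein 1 brings endosomes and signals back. FMRP-containing granules are among the cargoes of these motors. Other kinesins build the mitotic spindle, and a few kinesins together with dynein 2 serve the cilium.

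Rounded counts summed to between 5423919 and 10246479 per RNA-seq library and between 16239479 and 24973462 per footprint library, and the motor genes took 1.16% to 1.36% of the former and 1.09% to 1.17% of the latter. Fmr1 footprints were lower in FK (log2 change -3.75 ± 0.13 SE) and DK (-4.16 ± 0.14) than in WT, and Cpeb1 footprints were lower in CK (-2.22 ± 0.11) and DK (-2.16 ± 0.11), as the labels state. All 8 neuronal markers were detected in every library, with summed levels of 6640 to 7930 TPM in RNA (TPM, a level per length and scaled to library size). Markers of astrocytes (443 to 613 TPM) and microglia (31.5 to 63.4 TPM) were present as well, as in whole cortex, and choroid plexus markers ranged from 36.4 to 791 TPM between RNA libraries.

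The motor genes of WT cortex spanned levels from none to the top percent of tested genes. The highest in footprints were Dynll1 and Dynll2, the LC8 light chains of dynein that also join many other complexes. Dynll1 was also the highest in RNA. Dynll1 RNA stood at 898 and 1000 TPM in the 2 WT libraries and Dynll2 RNA at 715 and 650 TPM. In footprints Dynll1 stood at 1550 and 1640 TPM and Dynll2 at 1520 and 1470 TPM. Klc1, the main neuronal kinesin light chain, was the second highest in RNA at 871 and 691 TPM, and stood in footprints at 439 and 422 TPM.

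The heavy chains of kinesin-1, the motor of mitochondria, vesicles and slow axonal cargoes, were unequal. Kif5c RNA stood at 587 and 480 TPM in WT and Kif5a RNA at 445 and 367 TPM, whereas Kif5b, the form found in most tissues, stood at 138 and 120 TPM. In footprints the order of the first pair was the other way round, with Kif5a at 285 and 263 TPM and Kif5c at 245 and 235 TPM, which are ranges that do not overlap. Of the summed kinesin-1 heavy chain level in WT, Kif5a made up 38.0% ± 0.0327 (SD, n = 2) in RNA and 46.5% ± 1.00 in footprints, and Kif5c 49.9% ± 0.408 and 40.8% ± 0.26. Among the light chains, which link kinesin-1 to cargo and hold it inactive without cargo, Klc1 made up 73.8% ± 1.63 of the summed footprint TPM, Klc2 24.7% ± 1.58, Klc4 1.35% ± 0.0242 and Klc3 0.131% ± 0.025.

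The kinesin-3 motors Kif1a and Kif1b carry synaptic vesicle precursors and, for one Kif1b form, mitochondria. Kif1a RNA stood at 544 and 483 TPM in WT and Kif1b RNA at 465 and 393 TPM, and their footprints at 401 and 394 TPM and at 217 and 220 TPM. The other 5 kinesin-3 genes were far lower: in mean WT RNA, Kif1c stood at 18.5 TPM, Kif16b at 16.6, Kif13b at 15.8, Kif13a at 13.3 and Kif14, a kinesin of cell division, at 0.3. Kinesin-2 pairs Kif3a with Kif3b or Kif3c. Kif3a footprints (218 and 221 TPM) exceeded the sum of Kif3b and Kif3c footprints (154 and 148 TPM), and in RNA the sum (274 and 257 TPM) exceeded Kif3a (178 and 134 TPM). Kif17, the kinesin-2 that works as a homodimer and carries NMDA receptor subunits in dendrites, stood at 21.4 TPM in RNA and 7.40 TPM in footprints. Kif2a, a kinesin that shortens microtubules instead of walking, stood at 107 TPM in RNA and 112 TPM in footprints.

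For dynein 1, the heavy chain Dync1h1, which holds the motor domain, stood at 321 and 213 TPM in RNA and 141 and 161 TPM in footprints of WT. The intermediate chains Dync1i1 and Dync1i2, which bind dynactin, stood at 195 and 180 TPM in mean footprints, and the light intermediate chains Dync1li1 and Dync1li2, which bind activating adaptors, at 166 and 184 TPM. Dynlrb1, a roadblock light chain, reached 505 and 591 TPM in footprints and Dynlt3, a Tctex-type light chain, 283 and 259 TPM. The heavy chain of the ciliary dynein 2, Dync2h1, stood at 6.92 ± 0.255 TPM in footprints and its light intermediate chain Dync2li1 at 41.1 ± 1.34 TPM (SD, n = 2).

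The mitotic kinesins were at the bottom of the range. Their 11 genes (Kif11, Kif14, Kif15, Kif18a, Kif18b, Kif20a, Kif20b, Kif22, Kif23, Kif2c and Kif4) summed to 15.2 and 14.9 TPM in WT RNA and 5.22 and 6.39 TPM in WT footprints, beside summed levels of 11.7 to 12.5 TPM in RNA for 6 markers of dividing cells. The highest was Kif22 in RNA, a chromosome-binding kinesin, at 4.35 TPM. Kif12, Kif2b and Dynlt1a had no count in any of the 16 libraries. Dynlt1b had 0 counts in every footprint library and up to 1.61 CPM in RNA (counts per library size after TMM scaling), and Dynlt1f had counts in 3 RNA libraries and 1 footprint library. Dynlt1a, Dynlt1b and Dynlt1f are near-identical copies on chromosome 17, so how reads were divided among them is uncertain.

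After the filter on low counts 49 of the 56 genes were tested in RNA and 51 in footprints, and 48 were tested for translational efficiency, the footprint level relative to the RNA level. The genes not tested in RNA were Dynlrb2, Dynlt1a, Dynlt1f, Kif12, Kif18b, Kif2b and Kif2c. Those not tested in footprints were Dynlt1a, Dynlt1b, Dynlt1f, Kif12 and Kif2b.

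**Figure D1:**
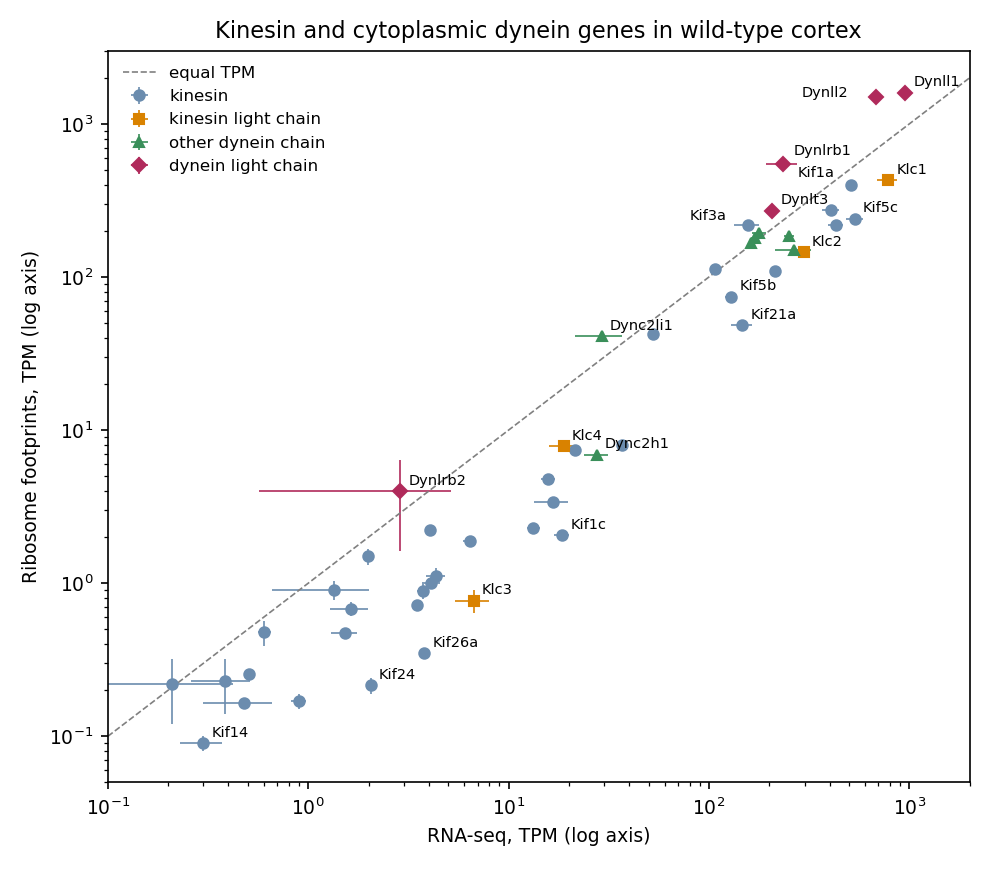
Mean level of each gene in the 2 WT libraries of RNA-seq (x axis, TPM, log scale) and ribosome footprints (y axis, TPM, log scale), with lines from the lower to the higher library, a line that runs off the axis marking a library at 0, and the dashed line marking equal TPM. The dynein light chains Dynll1, Dynll2 and Dynlrb1 sit above the dashed line, and Kif26a, Kif24, Kif1c and Klc3 sit far below it.

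The ratio of footprint TPM to RNA TPM in WT differed between the genes by more than an order of magnitude. It was highest for Dynlrb1 (2.62 and 2.14 in the 2 WT libraries), Dynll2 (2.13 and 2.25), Dynll1 (1.73 and 1.64) and Dync2li1 (1.15 and 1.86). It was lowest for Kif26a (0.0888 and 0.0954), Kif24 (0.122 and 0.0892), Kif1c (0.0989 and 0.126) and Klc3 (0.113 and 0.118). Kif26a is an atypical kinesin without ATPase activity, Kif24 a kinesin-13 that holds back cilium assembly, Kif1c a carrier of vesicles and mRNAs, and Klc3 a light chain best known from sperm.

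The median ratio was 0.495 over the 48 motor genes and 0.647 over the 13019 tested genes with a WT ratio. The ratio was over 1 for 10 of the 48 motor genes, beside 24.9% of all genes. Those 10 were the dynein light chains Dynll1, Dynll2, Dynlrb1 and Dynlt3, the dynein chains Dync1i1, Dync1i2, Dync1li1 and Dync2li1, and the kinesins Kif2a and Kif3a. Dync1h1, at 0.438 and 0.757, was below its intermediate chains Dync1i1 (0.979 and 1.23) and Dync1i2 (1.00 and 1.13). All 4 kinesin light chains were below the overall median.

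Across genes the ratio went with the length of the counted feature, with Spearman's rho -0.60 over the 48 motor genes and -0.49 over 13019 genes. These points share the libraries, and genes are not independent replicates. For the 38 motor genes listed with 1 transcript every RNA feature length divided by 3 without remainder, and 57 nt fewer were counted for footprints, so the counts appear to cover coding sequence. A difference of this size is a large share of the 267 nt of Dynll1 and Dynll2 and a small share of the 13932 nt of Dync1h1. Its part in the order of the ratios was not tested.

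**Figure D2:**
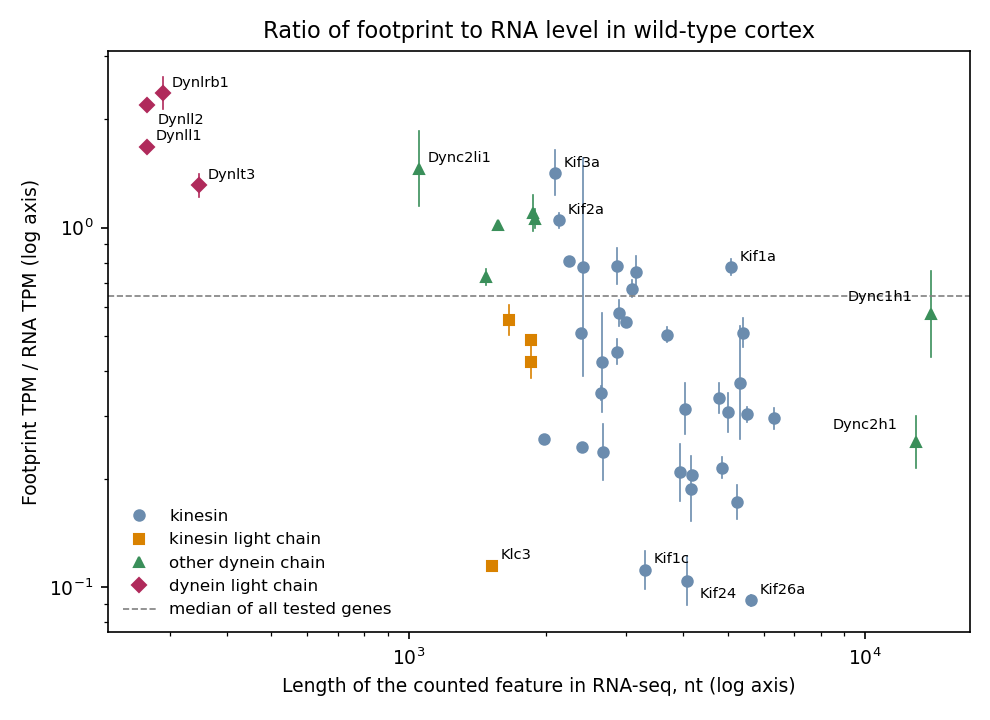
Ratio of footprint TPM to RNA TPM in WT (y axis, log scale) against the length of the RNA-seq feature in nt (x axis, log scale) for the 48 genes tested for translational efficiency. Points are geometric means of the 2 WT libraries, vertical lines join the libraries, and the dashed line is the median of all tested genes, 0.647.

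The question of the first comparisons was what the loss of FMRP, of CPEB1 or of both does to motor gene RNA. In edgeR's quasi-likelihood test none of the 49 motor genes passed an adjusted p of 0.05 in FK, CK or DK against WT, where 0.00753%, 0% and 0.00753% of the 13287 tested genes passed. DESeq2 also called none. At an unadjusted p under 0.05 the counts were 2, 1 and 3 motor genes, beside 8.09%, 11% and 4.23% of all genes. The 95% interval of the change lay within 1.5-fold for 29, 30 and 31 of the 49 genes, beside 56.6%, 54.9% and 61.5% of all genes. These are intervals of single genes, not adjusted for their number, so larger changes were not excluded for every one of them. For the rest the intervals themselves reached beyond 1.5-fold.

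The genes with the smallest p in RNA were as follows. Kif26a stood at 15.3 and 14.3 CPM in WT, 8.63 and 10.6 in FK, 10.5 and 9.46 in CK, and 17.7 and 11 in DK. The libraries of both single knockouts lay below all WT and DK libraries. Kif9, a kinesin of motile cilia, stood at 8.83 and 11.4 CPM in FK and 7.40 and 5.95 in WT, which do not overlap. Kif17 stood at 27.5 and 31.2 CPM in DK and 40.9 and 38.1 in WT, and Kif1c at 52.6 and 49.5 in DK and 45.2 and 38.2 in WT. Kif17 in DK overlapped the CK library at 28.2 CPM. Dynll2 RNA stood at 98.7 and 80.2 CPM in DK and 114 and 104 in WT, and FK (109 and 86.9) and CK (110 and 89.5) overlapped both.

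The submitters also compared both single knockouts as a group with WT and DK as a group, in RNA. In the same comparison here, 4 libraries against 4, Kif26a was the only motor gene of 49 to pass, and it was lower in the single knockouts: the log2 change was -0.58 ± 0.15 (SE, edgeR adjusted p = 0.0304), or 0.668-fold, with 4 of 4 single knockout libraries below 4 of 4 others. Of all tested genes 7.31% passed. Kif26a lies at chr12:112143974-112181747 (RefSeq, GRCm38.p6, the assembly of mm10). It is a low gene, with 61 to 153 counts per library. Of the 15 alternative settings 9 kept the call. It was lost without the replicate number as a block (edgeR adjusted p = 0.0504) and in a fit of 4 genotypes in place of 2 pooled groups (edgeR adjusted p = 0.0768). Leaving out any of 4 libraries also ended it: edgeR's adjusted p was 0.0993 without the first CK library, 0.12 without the first DK library, 0.136 without the first FK library and 0.0799 without the first WT library.

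The other 7 motor genes with an unadjusted p under 0.05 in this comparison stayed above an adjusted p of 0.05; 25.7% of all tested genes had such a p. Klc2 stood at 311, 345, 268 and 365 CPM in the FK and CK libraries and 394, 354, 398 and 398 CPM in the WT and DK libraries (log2 change -0.27 ± 0.09 SE, edgeR adjusted p = 0.0729), and 1 CK library overlapped. Kif21b, a kinesin-4 that slows microtubule growth in neurons, stood at 85.2 to 116 CPM against 113 to 152 CPM (-0.32 ± 0.11, edgeR adjusted p = 0.0886). Kif26b, the paralog of Kif26a, stood at 16.3 to 28.4 CPM against 25.9 to 34.7 CPM (-0.40 ± 0.14, edgeR adjusted p = 0.0944). The values of Kif5b (252 to 312 CPM against 197 to 272 CPM) and Dynll1 (166 to 192 CPM against 122 to 172 CPM) lay in the other direction, with changes of 0.24 ± 0.08 and 0.29 ± 0.10. Only for Kif26a, Kif22 and Dync1li1 did the 2 groups not overlap, that is 3 of 49 motor genes beside 12.2% of all genes. The astrocyte marker Gja1 was higher in the single knockouts (0.38 ± 0.09, edgeR adjusted p = 0.0264), and summed astrocyte markers were 549 to 613 TPM in FK and CK, 558 and 559 in DK and 443 to 488 in WT; their part in the motor gene values was not tested.

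**Figure D3:**
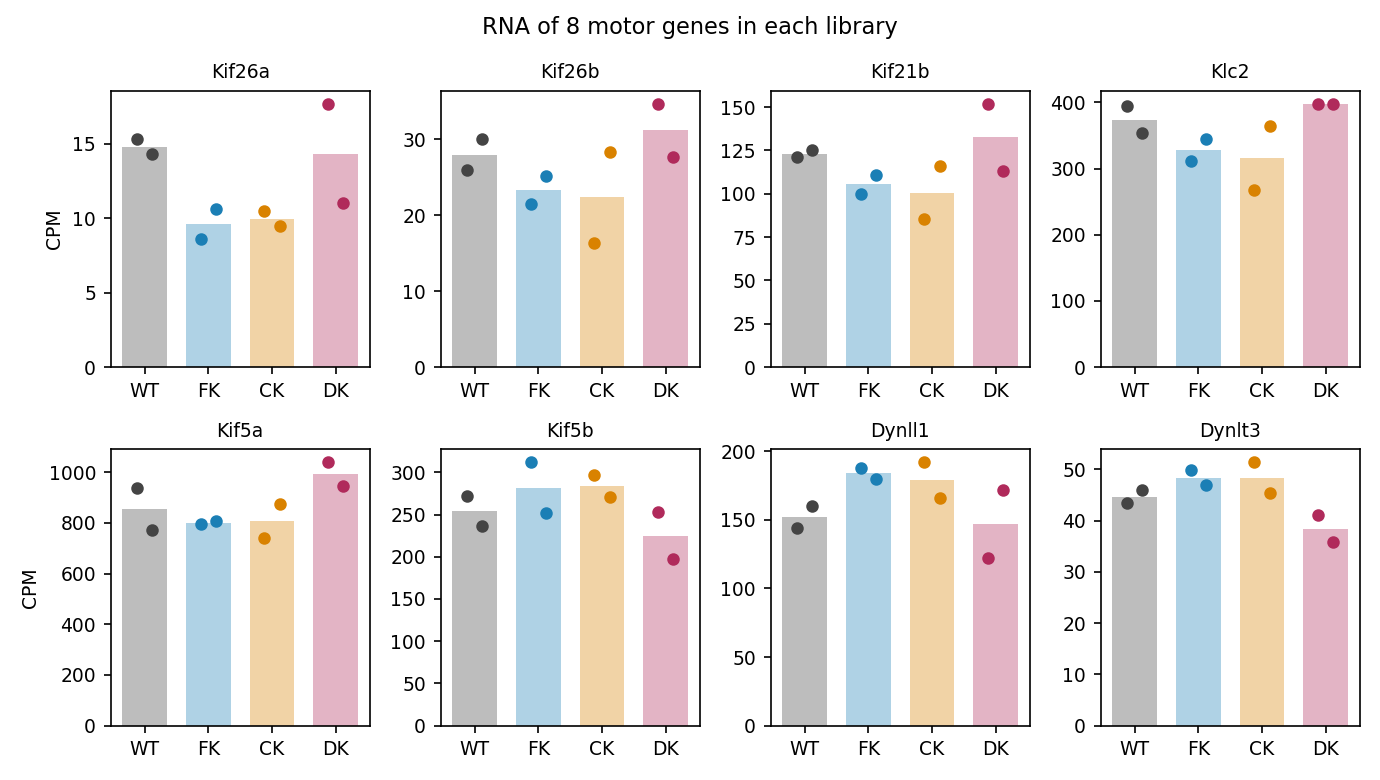
RNA of the 8 motor genes with an unadjusted p under 0.05 in the pooled comparison, in CPM. Points are libraries, bars are means of 2 libraries. Of these 8, only for Kif26a do all 4 libraries of FK and CK (8.63 to 10.6) lie below all 4 of WT and DK (11 to 17.7).

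In footprints of the single knockouts no motor gene passed. In edgeR, 0 of 51 were called in FK against WT and 0 of 51 in CK against WT, where 0.0581% and 0.0799% of the 13774 tested genes passed; DESeq2 called 0 in both. At an unadjusted p under 0.05 there was 1 motor gene in FK, Kif5c, and none in CK, beside 5.09% and 3.88% of all genes. Kif5c stood at 716 and 721 CPM in FK and 661 and 629 CPM in WT (log2 change 0.16 ± 0.06, edgeR adjusted p = 0.921). The 2 FK libraries were above the WT and CK libraries (671 and 675), with DK (681 and 708) between.

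The double knockout was the genotype in which motor gene footprints passed the test. Dynll2 was lower in DK than in WT, the kinesin light chains Klc2 and Klc4 were higher in DK than in CK, and Dynll2 was lower in DK than in CK. Against WT this was 1 of 51 motor genes, beside 2.65% of all genes, and against CK 3 of 51, beside 5.6%. Without the replicate number as a block both counts were 0. Against FK it was 0 of 51, beside 0.334%, with DESeq2 calling 1, Dynll2. The comparisons with WT, CK and FK share the DK libraries. The share of motor genes with an unadjusted p under 0.05 was 11, 12 and 9 of 51 in the same order, beside 21%, 24.6% and 15.9% of all genes, so the share of motor genes was close to that of all genes. The count against WT rose without the first WT library and fell without either DK library. Against CK it rose without either WT library and fell without either DK or CK library. These shifts were not compared with those of all genes.

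Dynll2 footprints stood at 212 and 190 CPM in DK, 267 and 256 in WT, 268 and 240 in FK, and 264 and 249 in CK. Both DK libraries were below the 6 others. The log2 change against WT was -0.38 ± 0.07 (SE; 0.768-fold, edgeR adjusted p = 0.0192), against CK -0.35 ± 0.07 (edgeR adjusted p = 0.0191) and against FK -0.34 ± 0.07 (edgeR adjusted p = 0.058). The gene lies at chr11:87979525-88003817. Its RNA change in DK was -0.29 ± 0.11 (edgeR adjusted p = 0.966) and its change in translational efficiency -0.11 ± 0.12 (edgeR adjusted p = 1, 95% interval -0.37 to 0.15), so a lower efficiency was not detectable. The call against WT held in 10 of 15 alternatives: edgeR's adjusted p was 0.0778 and 0.161 without the first and second DK library and 0.0522 without the second WT library. It was also lost without the replicate number as a block (edgeR adjusted p = 0.0719) and in a fit of DK and WT alone (edgeR adjusted p = 0.0757).

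Dynll1, which encodes a nearly identical light chain, stood at 258 and 208 CPM in DK and 272 and 287 in WT, with a change of -0.27 ± 0.09 (edgeR adjusted p = 0.107), and DK overlapped CK (256 and 237) and FK (275 and 248). Dynlt3 stood at 62.3 and 54.7 CPM in DK and 71.9 and 65.5 in WT (-0.23 ± 0.11), and Dynlrb1 at 125 and 100 against 105 and 122 (-0.01 ± 0.12). Dynlrb2 was too low to judge, at 0.509 and 0.496 CPM in DK and 0.319 and 1.24 in WT (-0.511 ± 0.565). The other tested light chains spanned from the called decrease of Dynll2 to no visible difference for Dynlrb1. The heavy chain Dync1h1 stood at 2450 and 2200 CPM in DK and 1890 and 2150 in WT (0.21 ± 0.08, edgeR adjusted p = 0.148). In TPM, the summed Dynll1 and Dynll2 footprints per Dync1h1 footprint were 14.6 and 13.8 in DK, 21.9 and 19.3 in WT, 20.1 and 17.2 in FK, and 19.7 and 18.0 in CK, so the DK libraries were below the other 6. In CPM both DK libraries already lay below the other 6 for Dynll2 and above them for Dync1h1. The ratio is therefore not a separate result. In RNA the same ratio ran from 4.69 to 7.74 and the genotypes overlapped.

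All 4 kinesin light chains had a footprint change above 0 in DK against WT, beside 24 of the 51 motor genes, and Klc2 and Klc4 passed against CK. The sign was not particular to DK: all 4 were also above 0 in FK against WT, and 2 of 4 in CK against WT. Klc4 stood at 16.9 and 18.2 CPM in DK, 11.7 and 12.6 in CK, 14.2 and 12.8 in WT, and 13.6 and 15.2 in FK. Its change was 0.52 ± 0.12 against CK (SE; 1.44-fold, edgeR adjusted p = 0.032) and 0.37 ± 0.12 against WT (edgeR adjusted p = 0.114). Klc2 stood at 288 and 323 CPM in DK, 224 and 244 in CK, 268 and 227 in WT, and 254 and 275 in FK. The Klc2 change was 0.38 ± 0.09 against CK (1.3-fold, edgeR adjusted p = 0.0342) and 0.30 ± 0.09 against WT (edgeR adjusted p = 0.0947). For both genes the DK libraries were above the 6 others.

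Klc1, the most abundant of them, stood at 735 and 773 CPM in DK, 670 and 624 in CK, 659 and 630 in WT, and 692 and 671 in FK. Both DK libraries were above the rest, with a change of 0.22 ± 0.07 against CK (edgeR adjusted p = 0.0673) and 0.23 ± 0.07 against WT (edgeR adjusted p = 0.0821). Klc3 was too low to judge, at 1.11 and 1.61 CPM in DK and 1.24 and 0.876 in WT (0.32 ± 0.36). Klc2 lies at chr19:5107746-5118298 and Klc4 at chr17:46630624-46646189. The calls of Klc2, Klc4 and Dynll2 against CK were lost when either CK or either DK library was left out, with edgeR adjusted p from 0.0772 to 0.388 over these 3 genes. All 3 were also lost without the replicate number as a block, with edgeR adjusted p of 0.062, 0.0519 and 0.0559.

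The heavy chains of kinesin-1 did not share this pattern as a group. Kif5b stood at 179 and 164 CPM in DK footprints and 183 to 212 CPM in the 6 others (-0.24 ± 0.08 against WT, edgeR adjusted p = 0.11), so DK was the lowest. Kif5a stood at 848 and 925 CPM in DK and 758 to 894 in the others (0.16 ± 0.08), and Kif5c at 681 and 708 against 629 to 721 (0.11 ± 0.06), both with overlap. Per kinesin-1 heavy chain, summed light chain footprints in TPM were 1.09 and 1.11 in DK, 1.00 and 0.983 in WT, 1.00 and 0.96 in FK, and 0.978 and 0.931 in CK. This ratio is built from the light chain values given above and is not a separate result. In RNA the ratio was 1.00 and 1.12 in DK and 1.03 to 1.08 in the other genotypes, with overlap.

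**Figure D4:**
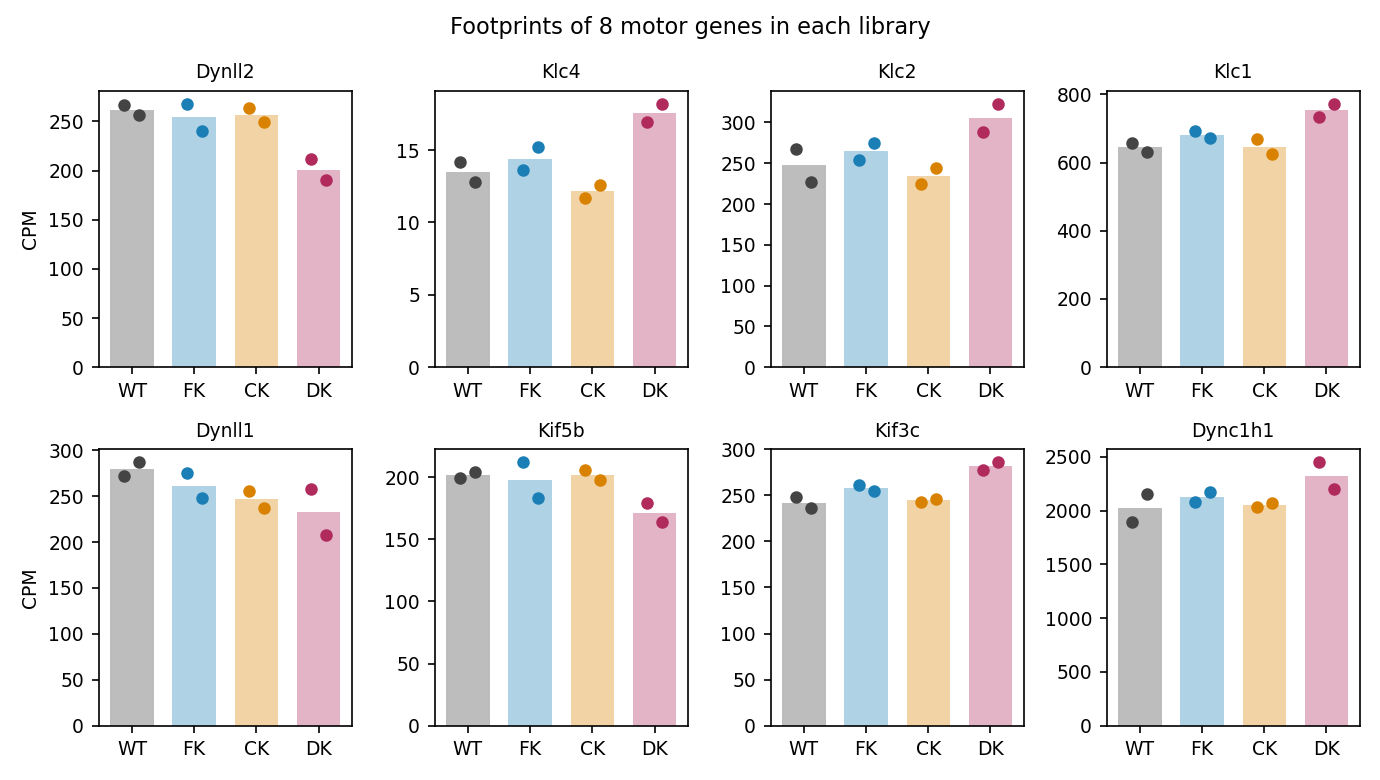
Footprints of 8 motor genes in CPM by genotype. Points are libraries and bars are means of 2 libraries. The DK libraries of Dynll2 (212 and 190) and Kif5b (179 and 164) lie below, and those of Klc4, Klc2, Klc1, Kif3c and Dync1h1 above, all 6 libraries of the other genotypes.

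Among the remaining kinesins no footprint change in DK passed the test. Kif21b stood at 53.5 and 44.7 CPM in DK, 33.7 and 39.8 in WT, 47.8 and 39.0 in FK and 39.1 and 40.0 in CK, and its change against WT was the largest of the kinesins above 10 CPM (0.42 ± 0.12, edgeR adjusted p = 0.0823), with DK overlapping FK. Kif3c, a kinesin-2 of neurons, stood at 277 and 286 CPM in DK and 236 to 261 CPM in the others (0.22 ± 0.07, edgeR adjusted p = 0.1). Kif1a stood at 2140 and 2170 CPM in DK and 1880 to 2140 in the others (0.17 ± 0.07, edgeR adjusted p = 0.174). Kif19a, which trims motile cilia, stood at 8.47 and 7.69 CPM in DK and 4.95 to 6.63 CPM in the others (0.38 ± 0.15, edgeR adjusted p = 0.184). Kif3a and Kif1b differed little from WT, at -0.02 ± 0.07 and -0.004 ± 0.06.

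Both DK libraries lay outside the range of the other 6 for 10 of 51 motor genes in footprints: Dync1h1, Kif19a, Kif1a, Kif3c, Klc1, Klc2 and Klc4 above, and Dync2h1, Dynll2 and Kif5b below. For all genes the share was 25.4%, so the motor genes were not above the background. In RNA it was 7 of 49, beside 13.3%, with Kif1c, Kif24, Kif3c, Kif5a, Kif7 and Klc2 above and Dynlt3 below. Kif3c and Klc2 were above in both assays, for which the share of all genes was not computed.

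The mitotic kinesins did not pass in any comparison, and their low counts left wide intervals. Kif4 (0.509 and 0.682 CPM in DK footprints and 0.958 and 0.830 in WT) had the lowest change of all tested motor genes, -0.61 ± 0.43, and Kif2c (1.11 and 0.62 CPM against 0.639 and 0.277) the highest, 0.92 ± 0.55. Of the 11 mitotic kinesins 2 had a footprint change above 0, with a median of -0.17, beside -0.001 for all tested genes. Summed footprint levels of the dividing-cell markers were 5.51 to 7.07 TPM in DK and 7.72 to 8.50 TPM in WT, and their part in these values was not tested. The 9 cilium-linked motors (Dync2h1, Dync2li1, Kif6, Kif7, Kif9, Kif17, Kif19a, Kif24 and Kif27) had a median of 0.10 with 5 above 0.

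**Figure D5:**
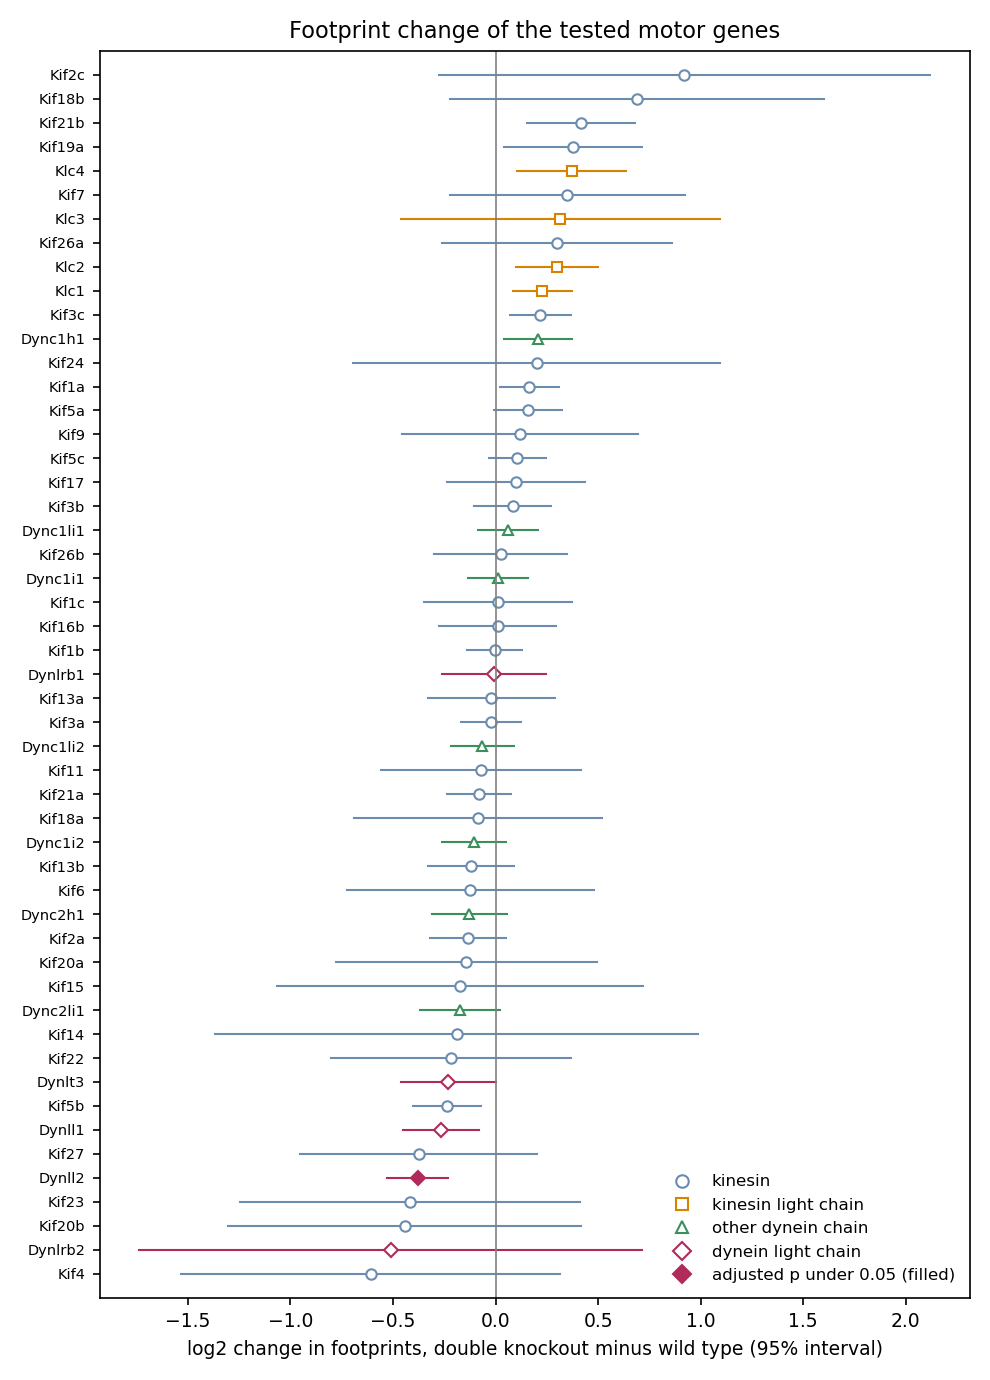
Log2 change in footprints of DK against WT for the 51 tested motor genes, with 95% intervals (x axis), in order of the change. Filled symbols passed an adjusted p of 0.05, which was Dynll2 alone at -0.38, and the widest intervals belong to genes with few counts such as Kif2c and Dynlrb2.

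Markers of cell types moved with the double knockout in footprints. P2ry12 of microglia (-0.88 ± 0.19, edgeR adjusted p = 0.0382) and the astrocyte genes Gja1 (-0.33 ± 0.08) and Slc1a3 (-0.32 ± 0.08) were lower, and Nefl of neurons was higher (0.37 ± 0.07, edgeR adjusted p = 0.0284). These were 1 of 6 microglial, 2 of 6 astrocyte and 1 of 8 neuronal markers on the lists, and no marker of these types was at 0 in any library. Summed microglial markers were 21.8 to 31.7 TPM in DK and 35.6 to 41.7 in WT, astrocyte markers 471 to 476 and 508 to 586, and neuronal markers 11500 to 11900 and 11100 to 11200. Their part in the values of Dynll2, Kif5b and the light chains was not tested. From footprints of such tissue alone, fewer cells of a type cannot be told apart from fewer footprints per cell. The RNA of these markers did not go the same way. In RNA of DK against WT, 6 of 6 microglial markers (median log2 change 0.331) and 6 of 6 astrocyte markers (0.269) were above 0, and 6 of 8 neuronal markers (0.045). Why the 2 assays differed was not tested.

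Translational efficiency of the motor genes showed no call. In edgeR's test of the interaction of assay and genotype 0 of 48 passed in FK, CK and DK against WT, where 0.0154%, 0% and 0.00768% of the 13027 tested genes passed, and DESeq2 called 0. At an unadjusted p under 0.05 there was 1 gene in FK (Kif26a, 0.77 ± 0.34, edgeR adjusted p = 0.613), 1 in CK (Dynll1, -0.41 ± 0.18, edgeR adjusted p = 0.521) and 0 in DK, beside 7.88%, 9.4% and 3.5% of all genes. The 95% interval lay within 1.5-fold for 25, 24 and 22 of the 48, beside 44.5%, 43.3% and 49.8% of all genes. For Dynll1, RNA stood at 144 and 160 CPM in WT, 188 and 180 in FK and 192 and 166 in CK, while footprints stood at 272 and 287, 275 and 248, and 256 and 237. RNA was higher in all 4 single knockout libraries than in WT.

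Partners of the motors were described from lists, and their counts stand beside 2.65% of all tested genes called in footprints of DK against WT, 5.6% in DK against CK, 0.0581% in FK against WT and 7.31% in the pooled RNA comparison. Of 12 dynactin genes, the complex that dynein needs to move over long distances, Dctn1 was higher in DK footprints against WT (0.31 ± 0.06, edgeR adjusted p = 0.0324) and CK (0.39 ± 0.06), and Capza2 was lower against CK (-0.29 ± 0.08); no other passed. Of 15 kinesin adaptors and partners Jakmip1 (0.45 ± 0.10) and Mapk8ip2 (0.40 ± 0.08), both of which bind kinesin-1, were higher in DK footprints against WT and also passed against CK, where Arl8b, a lysosomal GTPase that recruits kinesin-1, was lower (-0.32 ± 0.07). Of 15 dynein regulators and adaptors 1 passed in DK footprints, Rab11fip3, higher against CK (0.44 ± 0.11), and the RNA of Rab11fip3 (-0.36 ± 0.08), Trak1 (-0.32 ± 0.07) and the kinesin-1 adaptor Plekhm2 (-0.44 ± 0.08) was lower in the pooled single knockouts. Of 13 tested axonemal dyneins, motors of motile cilia that are not part of cytoplasmic dynein, Dnah6 was lower in footprints of FK (-1.37 ± 0.20) and DK (edgeR adjusted p = 0.0262) than in WT. None of 4 kinesins outside the naming rule (Kifc1, Kifc2, Kifc3 and Cenpe) passed in any comparison.

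Of the motor genes, 9 passed an adjusted p of 0.05 in at least 1 of 19 comparisons of the authors' deposited tables, and 13 of the 19 called none. The share of all genes passing in at least 1 of the 19 was not computed, so the 9 have no background beside them. In the authors' deposited table of DK against WT footprints these were Dynll2 (-0.34), Kif21b (0.33), Kif3c (0.19), Klc1 (0.20) and Klc2 (0.26), 5 of 51, beside 4.9% of the genes listed. The authors' deposited table of DK against CK footprints held Dynll2 (-0.31), Kif3c (0.19), Kif5b (-0.21), Klc1 (0.20), Klc2 (0.35) and Klc4 (0.43), 6 of 51 beside 7.73%, and that of DK against FK held Dynll2 alone (-0.30), beside 2.35%. In the authors' deposited pooled RNA table, whose sign is WT and DK minus the single knockouts, Dynll1 (-0.21), Kif5b (-0.18), Kif21b (0.24), Kif26a (0.31) and Klc2 (0.22) passed, 5 of 52 beside 9.09%. The authors' deposited Xtail tables of translational efficiency called Dynll1 in FK (-0.30) and in CK (-0.34) against WT, beside 2.96% and 2.47%. These log2 changes had the same sign as those of edgeR for each gene once the direction of the pooled table is reversed. Both come from the same libraries, so the shared sign is not separate support.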

How the data were processed

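The values came from gene tables of each RNA-seq and footprint library of mouse cortex. Per the file headers, the authors deposited RSEM expected counts (estimates per gene, not scaled to library size), TPM and, in other columns, feature lengths. Per the submitters' processing notes, mm10, cutadapt, Bowtie2, TopHat2, RSEM and DESeq2 were used; versions, roles and read filters are not given in the sources used here. The authors' deposited DESeq2 and Xtail tables hold a log2 change, a p-value and, for DESeq2, a mean normalized signal per gene, and were only described.

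Expected counts were rounded. Genes were tested with edgeR 4.0.16 (limma 3.58.1, R 4.3.3): TMM scaling, the filterByExpr filter (10 counts), then quasi-likelihood tests over all 8 libraries of an assay with the replicate number as a block. The block was taken from what was recalled of the study's methods. Translational efficiency was the interaction of assay and genotype over 16 libraries. Benjamini-Hochberg adjustment ran over all genes tested, and an adjusted p under 0.05 counts as called. Errors of log2 changes are standard errors. Alternatives were RLE size factors, other count filters, DESeq2 1.42.0, no block, a length correction, other sample sets and leaving out each library. The fits were tested on simulated data.

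Values by library were given for genes called in any comparison, the 3 smallest p per knockout comparison with WT, the 8 highest WT levels per assay and the 4 highest and 4 lowest WT ratios; genes given beyond these (Kif5b, Kif3c and other family members) were added by role after their values were seen. Not each of the 3 smallest p is described singly. Members and lists were chosen with earlier results of these data known. Oligodendrocyte markers are not reported here. Gene positions are from RefSeq, GRCm38.p6. With 2 libraries per group, precision is limited by their spread, and rounded counts of 5423919 to 24973462 per library give little counting error except for low genes.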

Additional observations from a re-analysis of the deposited data

Results flagged for a closer look

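Of 16 groups of 4 RNA libraries looked at (the 8 genes with an unadjusted p under 0.05 in the pooled comparison, in 2 groups each), 1 held a library far from the others. Klc2 RNA stood at 354 CPM in the second WT library, beside 394 CPM in the other WT library and 398 CPM in both DK libraries, and the gap was 0.909 of the range of the group. Chance flags about 1 in 20 such groups.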

How the results depend on the processing

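Footprints and RNA in 2 libraries per group left most calls among the motor genes near the threshold. In footprints of DK against WT (1 call) the count was 2 with a length correction and 0 in a fit of those 2 genotypes. It rose without the first WT library and fell without either DK library. Against CK (3 calls) it was 5 in a fit of those 2 genotypes and 0 to 7 with 1 library left out: 7 without either WT library and 0 without either DK or CK library. Against FK (0 calls) it was 1 without the count filter, 1 with DESeq2, 1 with a length correction and 2 in a fit of those 2 genotypes. It rose without either WT library. In the pooled RNA comparison (1 call) it was 5 without the count filter, 3 with DESeq2, 5 with a length correction, 0 in a fit of 4 genotypes, and 0 to 4 with 1 library left out: 0 without the first CK, DK, FK or WT library, 3 without the second CK library, and 4 without the second DK or WT library. The cause was not tested. Calls over all genes moved with the settings too. DESeq2 called 1110 of 13287 genes in the pooled RNA comparison, beside 971 in the main fit. In footprints of DK against FK it called 202 of 13774, beside 46. These shifts in the counts are therefore not a result about motor genes. In the other 8 comparisons, of FK, CK and DK with WT in RNA and translational efficiency and of FK and CK with WT in footprints, the count was 0 under every alternative run. No log2 change recomputed changed its sign, and the 24 recomputed WT ratios moved by factors of 0.974 to 1.03.

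Without the replicate block the counts were 0 in DK against WT, 0 in DK against CK and 0 in the pooled RNA comparison, with edgeR adjusted p of 0.0719 for Dynll2 against WT, 0.0559, 0.062 and 0.0519 for Dynll2, Klc2 and Klc4 against CK, and 0.0504 for Kif26a. Over all genes the block moved the calls from 73 to 365 in DK against WT, from 207 to 772 in DK against CK, and from 380 to 971 in the pooled comparison. The deviations of same-numbered libraries from their group means correlated at -0.0446 to 0.293 in RNA and -0.0748 to 0.334 in footprints over 6 pairs of genotypes, so the numbers are not shown to pair the libraries.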
